A study of Mus musculus with 12 samples.

Results

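The genes described here encode the matrix metalloproteinases (MMPs), the tissue inhibitors of metalloproteinases (TIMPs), the ADAMs and the secreted ADAMTS and ADAMTS-like proteins. The rule takes every gene whose symbol starts with Mmp, Timp, Adam or Adamts followed by its family number and uses no measured value, although the families were proposed with earlier results of these data known. This rule found 70 of the 18193 genes that a probe set names without ambiguity. Of the 70, 36 had a mean intensity of at least 32 over the 12 arrays and are described below: 10 of 18 MMPs, 4 of 4 TIMPs, 9 of 28 ADAMs, 9 of 15 ADAMTS and 4 of 5 ADAMTS-like genes. The other 34 were dim, with means from 4.77 to 26.8, and of these 0 were called in any comparison by limma, with 3 of their 170 tests at an unadjusted p under 0.05.

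Whole mouse hearts were measured on 12 Affymetrix arrays, 3 in each of 4 groups. All mice were male C57BL/6J of 8 to 10 weeks, and all hearts were taken at day 5. The untreated WT group was wild type and received no doxorubicin (DOX), an anthracycline used against cancer that damages heart muscle. The untreated knockout-labelled group was labelled CHIP knockout and also received none. The DOX-treated WT and DOX-treated knockout-labelled groups had the same genotypes and received a single intraperitoneal dose of 15 mg/kg. The study's methods describe the altered mice as cardiac-specific CHIP transgenic animals with WT littermates, give saline to the controls, and state a higher dose and an older age. The labels were kept here as group names. Whether hearts were pooled, and how many lines or clones stand behind the altered group, is not given in the sources used here.

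Stub1, the gene that encodes CHIP, a co-chaperone and ubiquitin ligase, goes against the knockout label. Its mean intensity was 1826 ± 33.7 (SD, n = 3) in untreated WT and 9411 ± 568 in untreated knockout-labelled hearts, and 1941 ± 10.2 and 7427 ± 1656 after DOX. The difference was 2.34 on the log2 scale without DOX (adjusted p = 2.2e-04) and 1.89 after DOX (adjusted p = 9.9e-04). A second Stub1 probe set differed by -0.04 and -0.08 and was not called. Every direction given for the knockout-labelled hearts below therefore comes from arrays in which this Stub1 probe set was brighter, not dimmer. The array medians lay between 28.9 and 30.4, and 9 of 9 cardiomyocyte markers were bright on all arrays, with summed intensities from 149148 to 178633.

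MMPs are zinc-dependent proteases that cleave collagens, gelatins and other matrix proteins, and TIMPs bind to their active site and block it. ADAMs are membrane-bound relatives, several of which cut growth factors, cytokines and receptors off the cell surface, while ADAMTS proteases act on proteoglycans and procollagens in the matrix. In the heart these enzymes are known for remodelling the matrix between muscle cells, and neutrophils, macrophages and fibroblasts are among their sources. The proteases are mostly made as inactive precursors, so that transcript levels do not give their activity.

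Promoter sequences are printed for Adam17, the member called in the most comparisons, and for Mmp3 and Timp1, members whose values stood apart on the same array. The 250 bases before the transcript start were read from RefSeq, build GRCm38.p6, 5′ to 3′ on the gene's strand. Capitals mark an AP-1 motif (TGANTCA) or a GC box (GGGCGG), searched on both strands. The Adam17 promoter lies at chr12:21373633-21373882 on the minus strand and holds a GC box 75 to 70 bases before the start. The Mmp3 promoter lies at chr9:7445572-7445821 on the plus strand and holds an AP-1 motif 46 to 40 bases before the start. The Timp1 promoter lies at chrX:20869916-20870165 on the plus strand and holds a GC box on the opposite strand, 8 to 3 bases before the start.
Adam17: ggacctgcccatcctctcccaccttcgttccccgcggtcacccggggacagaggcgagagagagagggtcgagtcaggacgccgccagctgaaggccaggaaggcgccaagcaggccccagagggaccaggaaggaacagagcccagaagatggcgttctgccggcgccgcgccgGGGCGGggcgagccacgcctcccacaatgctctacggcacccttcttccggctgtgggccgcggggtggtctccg
Mmp3: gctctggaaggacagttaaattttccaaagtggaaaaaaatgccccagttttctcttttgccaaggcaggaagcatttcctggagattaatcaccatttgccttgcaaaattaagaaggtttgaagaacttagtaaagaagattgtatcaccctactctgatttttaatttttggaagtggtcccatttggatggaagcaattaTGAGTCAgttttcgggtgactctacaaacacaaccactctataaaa
Timp1: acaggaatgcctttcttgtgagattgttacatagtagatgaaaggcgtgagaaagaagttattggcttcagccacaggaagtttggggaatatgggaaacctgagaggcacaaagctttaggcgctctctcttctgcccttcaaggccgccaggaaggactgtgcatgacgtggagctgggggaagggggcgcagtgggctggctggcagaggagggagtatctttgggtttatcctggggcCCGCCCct
Of all 32851 RefSeq promoters of this length, 6.75% held the AP-1 motif and 32.7% the GC box. Of the 36 members, 23 were matched to 27 promoters, among which Adam19, Mmp3 and Mmp7 held the AP-1 motif and promoters of 16 members held the GC box. A match of letters is a description of the window and not a binding site.

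Before the comparisons, the arrays that stood apart have to be named, as those at least 2-fold above the log2 mean of the other arrays of their group for a member. Untreated knockout-labelled replicate 3 did so for Mmp3, Mmp8 and Timp1, and lay 2-fold above or below for 0.575% of all probe sets, the highest share of the 12 arrays. DOX-treated WT replicate 2 and DOX-treated knockout-labelled replicate 1 did so for Mmp8. The other arrays of these groups that lay 2-fold away were below, untreated knockout-labelled replicates 1 (Mmp3) and 2 (Mmp3, Timp1) and DOX-treated WT replicate 3 (Mmp8). On these bright arrays the sum of the neutrophil markers was high: the summed intensity (7 of 9 listed markers found) was 5134 on untreated knockout-labelled replicate 3, against 358 and 838 on the other arrays of the group, and 6572 on DOX-treated WT replicate 2, against 943 and 594. The sums ranged from 803 to 2078 in untreated WT hearts, and were 2605 on DOX-treated knockout-labelled replicate 1 against 908 and 1708 on the other arrays of that group. S100a8 and S100a9, calcium-binding proteins of neutrophils and monocytes, made up most of these sums, while the granule enzymes Mpo and Elane stayed dim on all 12 arrays, at no more than 17.6 and 24.6. Several results that rest on these arrays are given with and without them.

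Calls were made with limma wherever the p, adjusted over all 45037 probe sets, was under 0.05. Fold changes are of the intensity plus 32, so they understate the change of dim genes, and a gene was read on its brightest probe set. The 4 groups serve more than 1 comparison each, so that the genotype and DOX comparisons share arrays and are not independent. The small number of arrays, 3 a group, sets the precision. The labels call them biological replicates but do not tie them to animals, so that the p-values measure no more than the spread between these arrays.

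In all, 6 of the 36 members were called at least once, in 8 calls, and 30 were never called. This count and the counts by family below pool the comparisons. The share of all genes called at least once was not taken, so shares are set beside the members by comparison only. Adam17 was lower after DOX in both genotypes and higher in the knockout-labelled hearts without DOX. Adam22 was higher after DOX in WT hearts and Timp3 in knockout-labelled hearts. Adamts9 and Adamtsl2 were higher in knockout-labelled hearts without DOX, and Mmp2 was higher in them after DOX. Mmp2 had the largest of these 8 differences and the genotype difference of Adam17 the smallest, 2.0-fold and 1.25-fold on the scale used.

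Without DOX, 3 members were called higher in knockout-labelled than in WT hearts and 0 lower. In that comparison 1.81% of all probe sets were called, and of the 11644 genes with a mean of at least 32, 2.05% were called higher and 2.12% lower, beside 8.33% and 0% of the 36 members. The arrays of the 2 groups did not overlap for 9 of the 36, all 9 with the knockout-labelled hearts higher (25.0%), beside 12.6% of these genes higher and 16.8% lower. The median log2 difference of the members was 0.08, beside -0.02 for these genes. After DOX, 1 member was called higher in knockout-labelled hearts (2.78%) and 0 lower, beside 0.941% of all probe sets, 0.678% of these genes called higher and 1.49% lower. The groups did not overlap for 7 members higher and 3 lower (19.4% and 8.33%), beside 12.1% and 14.6% of these genes, and the median was 0.08 beside -0.02.

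In the DOX response of WT hearts 1 member was called higher and 1 lower (2.78% each), beside 3.06% of all probe sets, 2.64% of these genes called higher and 3.19% lower. The groups did not overlap for 8 members higher and 7 lower (22.2% and 19.4%), beside 15.7% and 18.6% of these genes. In knockout-labelled hearts 1 was called higher and 1 lower, beside 2.2% of all probe sets, 1.63% of these genes called higher and 3.27% lower. The groups did not overlap for 4 members higher and 6 lower (11.1% and 16.7%), beside 13.1% and 16.8%. The medians were 0.03 and 0.01, beside -0.01 for these genes in both. A share of 36 moves by 2.78 percentage points with each gene, and these shares are given as a description.

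**Figure D1:**
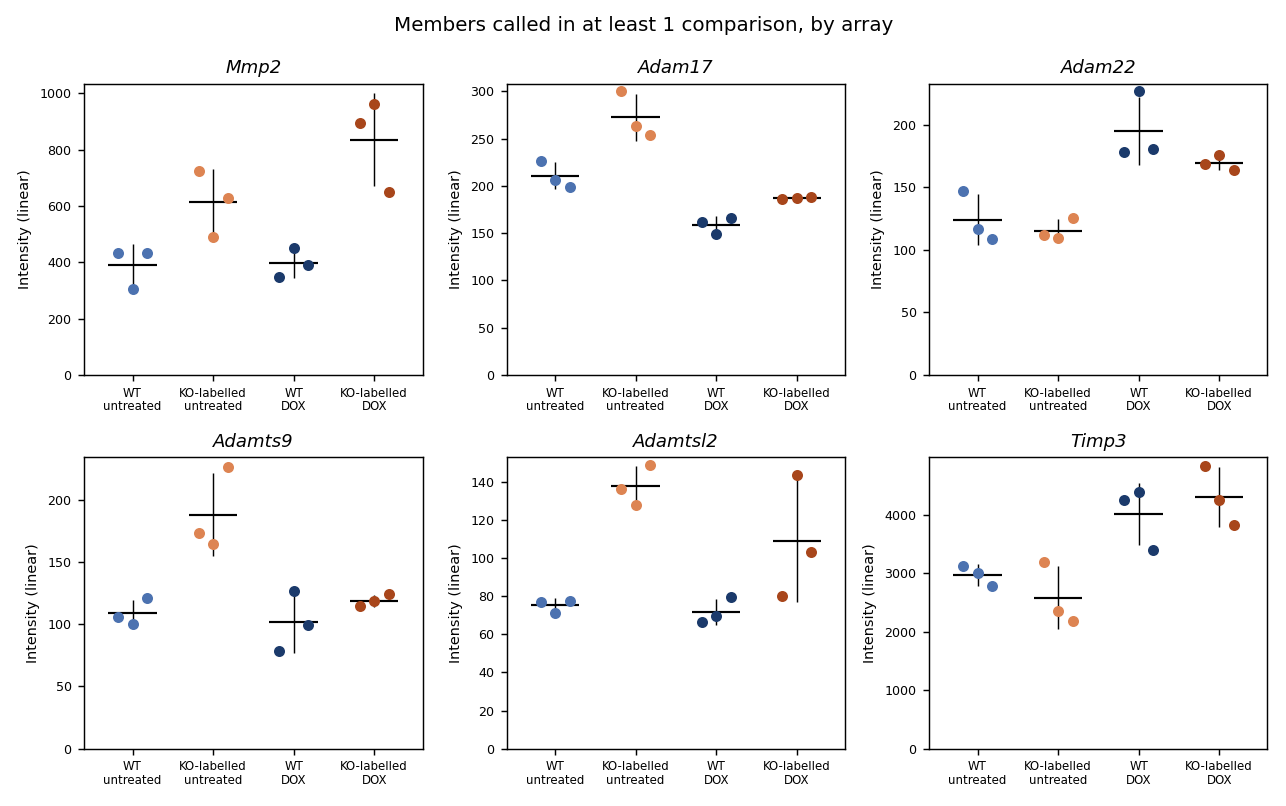
Intensity (linear axis from 0) of the 6 members called in at least 1 comparison, with 1 dot per array, a horizontal bar for the mean and a vertical bar for the SD of the 3 arrays. Adam17 is lowest in the DOX-treated WT hearts, at 149 to 166, and Mmp2 is highest in the DOX-treated knockout-labelled hearts, at 648 to 962.

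Among the MMPs, 1 of 10 was called, and in 1 comparison only. Mmp2, gelatinase A, which degrades denatured collagen and basement membrane collagen, read 349, 451 and 390 on the DOX-treated WT arrays and 893, 962 and 648 on the DOX-treated knockout-labelled arrays. All 3 of the latter lay above all 3 of the former. The difference was 2.0-fold (log2 1.00, SE 0.19, 95% interval 0.58 to 1.43, adjusted p = 0.047). The second Mmp2 probe set was also called, with a log2 difference of 1.10 (adjusted p = 0.026).

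Without DOX, Mmp2 read 433, 305 and 434 in WT and 725, 489 and 626 in knockout-labelled hearts. The groups again did not overlap, but the log2 difference of 0.61 was not called (adjusted p = 0.16). The DOX response of Mmp2 was 0.03 on the log2 scale in WT (95% interval -0.39 to 0.45) and 0.42 in knockout-labelled hearts (adjusted p = 0.31), and the interaction was 0.39 (adjusted p = 0.70). Mmp2 stands in a list that the study chose on these samples, so its call is not independent evidence of a direction. Leaving out 1 array at a time kept the log2 difference after DOX between 0.89 and 1.17, but the call was kept only without untreated knockout-labelled replicate 2 or 3. Without the others the adjusted p rose to between 0.055 and 0.162, the highest without DOX-treated knockout-labelled replicate 2.

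Fibroblast markers moved with the genotype as well. Their summed intensity (10 of 10 markers) ranged from 19128 to 22858 in DOX-treated WT and from 24353 to 27034 in DOX-treated knockout-labelled hearts, and from 20957 to 24802 and from 25056 to 38636 in the untreated pair. Dcn, Gsn and Mgp made up most of these sums. After DOX their means were 8014, 5957 and 4511 in WT and 8269, 6944 and 6229 in knockout-labelled hearts. Those of the dimmer Tcf21 were 147 and 168. All 10 markers had a log2 difference above 0 in both genotype comparisons, with Lum called after DOX and Col1a1 without it. After DOX the macrophage markers had 10 of 12 log2 differences above 0 (median 0.34, 0 called), with sums of 2975 to 4222 in WT and 4051 to 5065 in knockout-labelled hearts, and the endothelial markers 0 of 9 (median -0.17, 0 called). The fibroblast markers Postn, Col1a1 and Col1a2 and the macrophage marker Lgals3 stand in the same list of the study as Mmp2. Their directions after DOX are therefore not independent evidence. The part of the fibroblast, macrophage and endothelial markers in the values of Mmp2 was not tested. In RNA from whole hearts, a change in the number of cells of a type and a change in RNA per cell cannot be told apart.

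Mmp3, stromelysin-1, which degrades proteoglycans and activates other MMPs, read 43.3, 35.9 and 25.9 in untreated WT hearts and 168, 89.3 and 135 in DOX-treated WT hearts. In knockout-labelled hearts it read 25.8, 28.4 and 383 without DOX and 197, 130 and 122 with it. All 6 DOX-treated arrays lay above 5 of the 6 untreated ones, and the sixth, untreated knockout-labelled replicate 3, was the brightest of all 12.

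With all arrays in the fit Mmp3 was not called: the DOX response was 1.26 on the log2 scale in WT (SE 0.63, adjusted p = 0.33) and 0.66 in knockout-labelled hearts (adjusted p = 0.70). Without untreated knockout-labelled replicate 3, Mmp3 was called in both, with log2 responses of 1.26 (2.39-fold, adjusted p = 0.017) and 1.60 (3.02-fold, 95% interval 1.08 to 2.11, adjusted p = 0.022). With DOX-treated WT replicate 2 left out as well, both calls stood, at 1.46 (adjusted p = 0.020) and 1.60 (adjusted p = 0.020). These settings were chosen after the values had been seen. The genotype difference without DOX changed sign with that array, from 0.76 (adjusted p = 0.70) to -0.17 (adjusted p = 0.91). After DOX the genotypes differed by 0.16 on the log2 scale, with a 95% interval from -1.25 to 1.57.

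Mmp8, the collagenase of neutrophils, is described because its values stood apart, and was chosen after they were seen. It read 24.7, 29.1 and 41.3 in untreated WT hearts, 13.9, 17.3 and 125 in untreated knockout-labelled hearts, 59.8, 323 and 30.2 in DOX-treated WT hearts and 193, 37.5 and 51 in DOX-treated knockout-labelled hearts. The brightest array of each of the last 3 groups was also the brightest of its group for S100a8 and S100a9. The DOX response in WT was 1.00 on the log2 scale (adjusted p = 0.51) and 0.25 without DOX-treated WT replicate 2, and that in knockout-labelled hearts was 0.62 (adjusted p = 0.76) and 0.10 without DOX-treated knockout-labelled replicate 1. Untreated knockout-labelled replicate 3 (125) stood apart in the same comparison, and the response without it is not given here. All DOX-treated knockout-labelled arrays lay above the other untreated arrays of that genotype (13.9 and 17.3). Ngp, a neutrophil granule protein, was brightest of its group on untreated knockout-labelled replicate 3 (286) and DOX-treated WT replicate 2 (391), but dimmest on DOX-treated knockout-labelled replicate 1, at 53.7 against 82.4 and 60.9. Mpo and Elane were the dimmest of their group on DOX-treated WT replicate 2. The part of neutrophil markers in the values of Mmp8 was not tested.

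**Figure D2:**
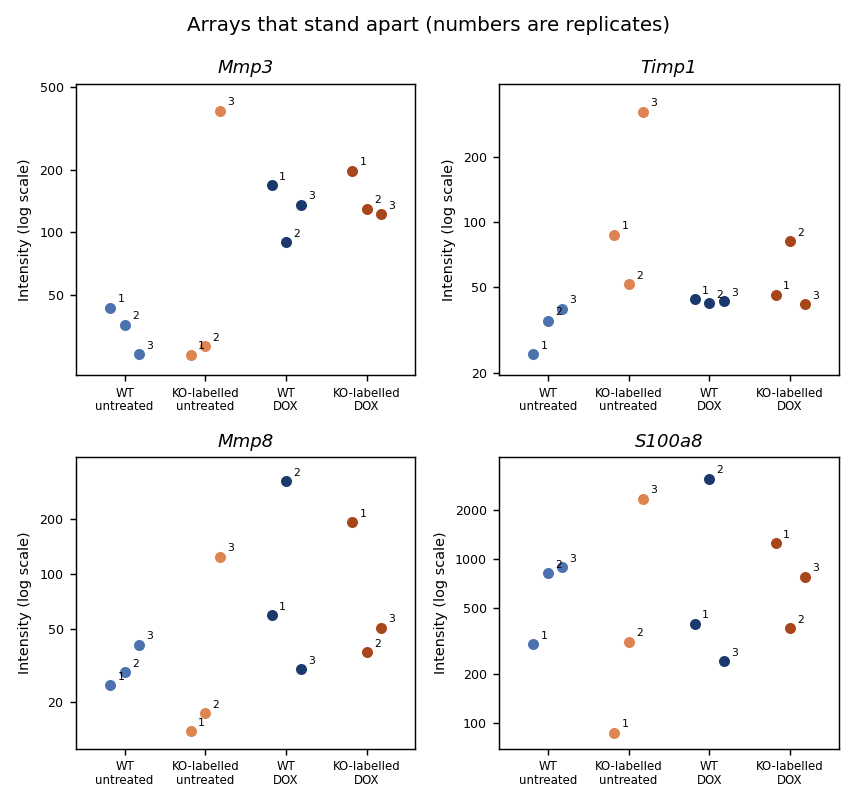
Intensity (log axis) of Mmp3, Timp1, Mmp8 and the neutrophil marker S100a8, with 1 dot per array numbered by replicate. Untreated knockout-labelled replicate 3 is the brightest of its group in all 4 panels, at 383 for Mmp3 and 325 for Timp1, and DOX-treated WT replicate 2 is the brightest of its group for Mmp8 (323) and S100a8 (3095).

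The other MMPs gave no call. Mmp14, a membrane-bound MMP that activates pro-MMP2, read 130, 86.1 and 94.2 in untreated WT hearts and 153, 136 and 261 in untreated knockout-labelled hearts. The groups did not overlap, and the log2 difference was 0.64 (adjusted p = 0.20), or 0.39 without untreated knockout-labelled replicate 3 (adjusted p = 0.47). After DOX the Mmp14 levels were 150 ± 24.4 and 153 ± 31.2 (SD, n = 3), a log2 difference of 0.02 with a 95% interval from -0.47 to 0.51.

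Mmp9, gelatinase B, was near the lower limit of brightness on all arrays, from 24.2 to 65.8. Its log2 differences lay between -0.01 and 0.16 in the 4 comparisons of 2 groups, with adjusted p of 0.78 or more. The 95% interval of its DOX response was -0.32 to 0.53 in WT and -0.27 to 0.58 in knockout-labelled hearts.

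Among the TIMPs, 1 of 4 was called, Timp3 after DOX in knockout-labelled hearts. Timp3, which stays bound to the matrix and also inhibits ADAM17 and ADAMTS proteases, read 3195, 2355 and 2191 in untreated and 4845, 4259 and 3828 in DOX-treated knockout-labelled hearts. The groups did not overlap, and the response was 1.68-fold (log2 0.75, SE 0.15, 95% interval 0.42 to 1.08, adjusted p = 0.036). In WT hearts Timp3 read 3134, 3004 and 2776 without and 4249, 4389 and 3406 with DOX.

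The WT groups did not overlap either, but the log2 response of 0.42 was not called (adjusted p = 0.15), and the interaction was 0.32 (adjusted p = 0.69). The 3 other Timp3 probe sets gave log2 responses of 0.41 to 0.59 in knockout-labelled hearts, of which 0 were called, and of 0.45 to 0.48 in WT hearts, of which 1 was called (adjusted p = 0.049). The call in knockout-labelled hearts was kept without untreated knockout-labelled replicate 1, DOX-treated knockout-labelled replicate 3, or DOX-treated WT replicate 2 or 3. Without any of the other 8 arrays it was lost, with log2 responses from 0.64 to 0.75 and an adjusted p up to 0.137, the highest without DOX-treated knockout-labelled replicate 1.

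Timp2, which blocks MMP2 and also takes part in its activation at the cell surface, read 1252, 977 and 1020 in untreated WT hearts and 1480, 1415 and 1620 in untreated knockout-labelled hearts. After DOX it read 895, 773 and 884 in WT and 1025, 1277 and 1125 in knockout-labelled hearts. In each of the 4 pairs of groups the arrays did not overlap, with knockout-labelled above WT hearts and untreated above DOX-treated hearts.

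On this probe set Timp2 was not called: the genotype difference was 0.47 without DOX (adjusted p = 0.061) and 0.41 after it (adjusted p = 0.11) on the log2 scale, and the DOX response -0.33 in WT (adjusted p = 0.12) and -0.39 in knockout-labelled hearts (adjusted p = 0.095). Of its 5 other probe sets, 2 were called in the genotype difference without DOX, at 0.47 (adjusted p = 0.045) and 0.50 (adjusted p = 0.042). The latter was also called after DOX, at 0.55 (adjusted p = 0.041).

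Timp4, the TIMP with the most restricted expression, high in heart, read 935, 1307 and 720 in untreated and 1731, 1348 and 1465 in DOX-treated WT hearts. In knockout-labelled hearts it read 763, 554 and 750 without and 1147, 1198 and 811 with DOX. The arrays with DOX lay above those without in both genotypes, with log2 responses of 0.63 (adjusted p = 0.15) and 0.58 (adjusted p = 0.23) that were not called. The genotype difference was -0.47 without DOX (adjusted p = 0.38) and -0.53 after it (adjusted p = 0.29).

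Timp1, an inhibitor known to be induced in inflammation and fibrosis, read 24.6, 35 and 39.8 in untreated WT hearts and 87.6, 51.7 and 325 in untreated knockout-labelled hearts. It read 44.1, 42.2 and 43 in DOX-treated WT and 46.2, 81.5 and 41.7 in DOX-treated knockout-labelled hearts. The untreated groups did not overlap, and their log2 difference of 1.24 (SE 0.43, adjusted p = 0.20) was not called. Without untreated knockout-labelled replicate 3 it was 0.63 (adjusted p = 0.24). On that array the macrophage markers summed to 7486, against 5674 and 4061 on the other arrays of the group, and the fibroblast markers to 38636, against 29665 and 25056. The part of these markers in the Timp1 value was not tested.

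**Figure D3:**
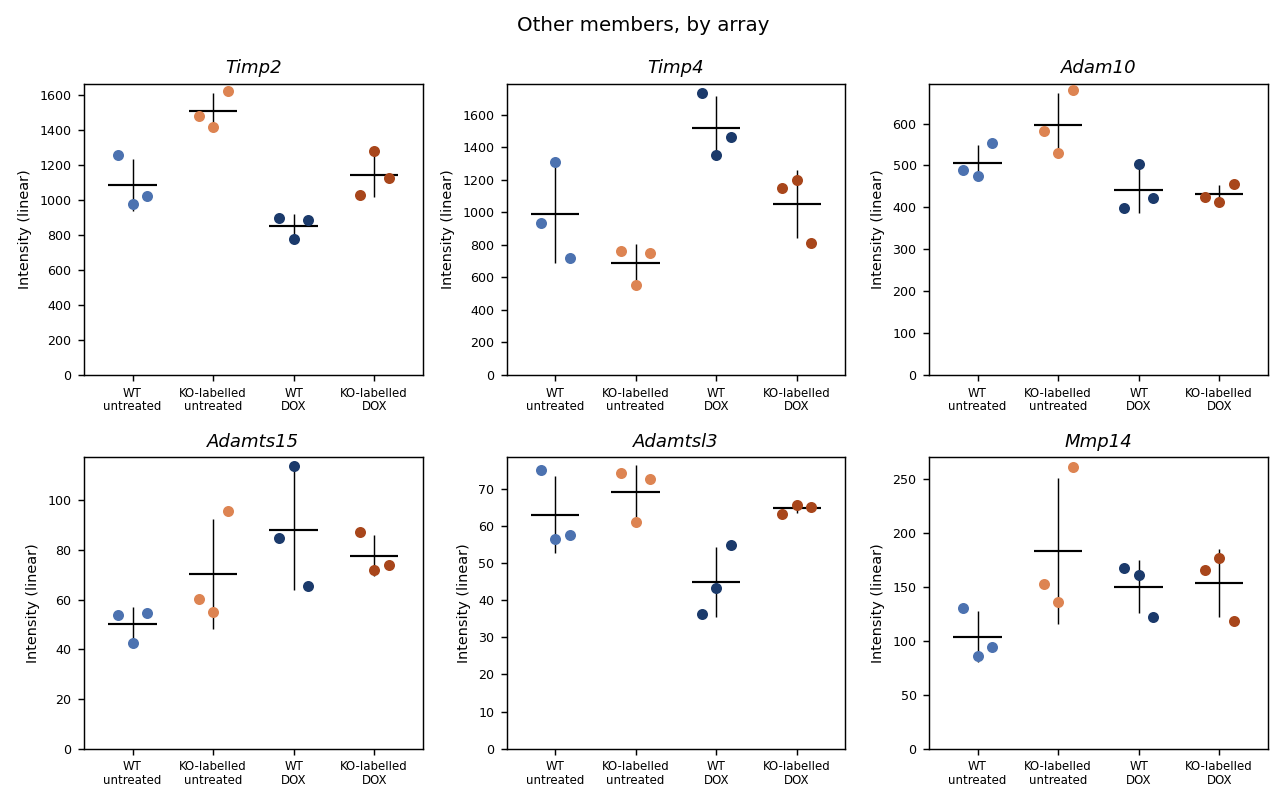
Intensity (linear axis from 0) of 6 members that were not called, with 1 dot per array, a horizontal bar for the mean and a vertical bar for the SD of the 3 arrays. Timp2 lies at 773 to 895 in the DOX-treated WT hearts, below the 3 other groups, and Timp4 lies highest in the same hearts, at 1348 to 1731.

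Among the ADAMs, 2 of 9 were called. Adam17, the sheddase that releases TNF and several EGF-receptor ligands, read 227, 206 and 199 in untreated WT hearts and 162, 149 and 166 in DOX-treated WT hearts. In knockout-labelled hearts it read 300, 263 and 254 without and 186, 187 and 188 with DOX. The arrays of the 2 groups did not overlap in any of the 4 comparisons.

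Adam17 fell after DOX by 0.34 on the log2 scale in WT (1.27-fold, SE 0.06, adjusted p = 0.025) and by 0.47 in knockout-labelled hearts (1.39-fold, SE 0.06, 95% interval -0.61 to -0.34, adjusted p = 0.010). The interaction was -0.13 (adjusted p = 0.70). Without DOX it was 1.25-fold higher in knockout-labelled hearts (log2 0.33, SE 0.06, adjusted p = 0.033), and after DOX the log2 difference of 0.20 was not called (adjusted p = 0.16). A second probe set of similar brightness gave -0.25, -0.38 and 0.28 for the 3 called comparisons, each in the same direction and not called (adjusted p = 0.18, 0.070 and 0.18).

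Markers of most of the listed cell types had mostly lower values after DOX too. Of the fibroblast markers 1 of 10 had a log2 response above 0 in WT (median -0.37, Dpt and Lum called lower) and 0 of 10 in knockout-labelled hearts (median -0.51, Col1a1 and Lum called lower). Of the macrophage markers 2 of 12 were above 0 in WT (median -0.55, Cd68 and Csf1r called lower) and 3 of 12 in knockout-labelled hearts (median -0.33, Cx3cr1 called lower). Of the smooth muscle and pericyte markers 2 of 8 were above 0 in WT (median -0.14, 0 called) and 1 of 8 in knockout-labelled hearts (median -0.44, Acta2 and Cspg4 called lower). Cardiomyocyte markers were above 0 in 1 of 9 in WT (median -0.10) and 3 of 9 in knockout-labelled hearts (median -0.02, Ryr2 called lower). Endothelial markers were above 0 in 3 and 4 of 9 (medians -0.12 and -0.09). Lymphocyte markers were above 0 in 0 of 5 in both (medians -0.16 and -0.02). Of these, Cd3g, Cd79a, Ms4a1 and Nkg7 were dim, with means from 12.9 to 22.9. Neutrophil markers were above 0 in 3 of 7 in WT (median -0.003) and 5 of 7 in knockout-labelled hearts (median 0.08). The part of these markers in the DOX responses of Adam17, Adam10 and Timp2 was not tested.

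The fall in knockout-labelled hearts was called in 11 of the 12 fits that left out 1 array, and lost without DOX-treated knockout-labelled replicate 1 (log2 -0.47, adjusted p = 0.051). The fall in WT hearts was lost without any of the untreated WT arrays or without DOX-treated WT replicate 1 or 2, with log2 values from -0.38 to -0.30 and an adjusted p of at most 0.079. The genotype difference was lost in 6 of the 12 fits, those without untreated WT replicate 2 or 3, untreated knockout-labelled replicate 1, DOX-treated WT replicate 1, or DOX-treated knockout-labelled replicate 2 or 3. There it lay between 0.26 and 0.33, with an adjusted p of up to 0.125. With an estimate from all arrays but the 2 that stood apart, the fall in WT hearts was 0.31 and not called (adjusted p = 0.053).

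Adam22, an ADAM without protease activity that serves as a receptor in the nervous system, read 147, 117 and 109 in untreated WT and 178, 227 and 180 in DOX-treated WT hearts. In knockout-labelled hearts it read 111, 109 and 126 without and 169, 176 and 164 with DOX. All 6 DOX-treated arrays lay above all 6 untreated ones. The response was 1.45-fold in WT (log2 0.54, SE 0.10, 95% interval 0.32 to 0.76, adjusted p = 0.027) and 1.37-fold in knockout-labelled hearts (log2 0.45, adjusted p = 0.052), where it was not called.

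The interaction of Adam22 was -0.09 (adjusted p = 0.89). The second Adam22 probe set was dim, with a mean of 17.1, and its log2 response in WT was -0.01 (adjusted p = 0.98). The call in WT was lost without untreated WT replicate 2 or 3 or DOX-treated WT replicate 1 or 2, with log2 values from 0.44 to 0.59 and an adjusted p of at most 0.102. With untreated knockout-labelled replicate 3 and DOX-treated WT replicate 2 both left out, the WT response was 0.44 (adjusted p = 0.054). That in knockout-labelled hearts was 0.50, which was called (adjusted p = 0.041). The response in knockout-labelled hearts stayed uncalled in only 3 of the 12 alternatives other than leaving out 1 array. The rest called it, among them quantile normalization, dim probe sets left out and the threshold of 0.1. Of the 12 fits that left out 1 array, 2 called it.

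Adam10, the sheddase of Notch receptors and cadherins, read 582, 529 and 681 in untreated and 426, 413 and 456 in DOX-treated knockout-labelled hearts, without overlap. The log2 response was -0.43 (SE 0.10, adjusted p = 0.063) and not called. In WT hearts it was -0.19, with a 95% interval from -0.42 to 0.04. The response in knockout-labelled hearts was called in 2 of the 12 fits that left out 1 array. It stayed uncalled in 7 of the 12 other alternatives. The rest called it: 1 probe set per gene, averaged probe sets, dim probe sets left out, a trended and robust variance and the threshold of 0.1.

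Adam15 and Adam19 were not called in any comparison. Adam15 read 482, 514 and 509 in untreated WT and 456, 456 and 459 in DOX-treated WT hearts, a log2 response of -0.13 (adjusted p = 0.22). The log2 differences of Adam19 lay between -0.09 and 0.31 in the 4 comparisons of 2 groups, with adjusted p of 0.64 or more. Adam11 was called only with untreated knockout-labelled replicate 3 left out, in the DOX response of WT hearts.

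Among the ADAMTS and ADAMTS-like genes, 2 of 13 were called, both in the genotype difference without DOX. Adamts9, a protease that cleaves versican and aggrecan, read 106, 101 and 121 in untreated WT and 173, 165 and 227 in untreated knockout-labelled hearts. The groups did not overlap, and the difference was 1.55-fold (log2 0.63, SE 0.13, 95% interval 0.33 to 0.93, adjusted p = 0.049). After DOX it read 78.1, 127 and 99.5 in WT and 114, 119 and 124 in knockout-labelled hearts, which overlapped.

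The DOX response of Adamts9 was -0.53 in knockout-labelled hearts (adjusted p = 0.076) and -0.09 in WT hearts, and the interaction was -0.44 (adjusted p = 0.57). The genotype call was kept only without untreated knockout-labelled replicate 2, DOX-treated WT replicate 1 or DOX-treated WT replicate 2. In the other 9 fits the log2 difference lay between 0.51 and 0.69 and the adjusted p was up to 0.17, the highest without untreated WT replicate 2. The other probe sets of Adamts9, with means of 36 and 14.2, gave 0.04 and 0.24 and were not called.

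Adamtsl2, a matrix protein of the ADAMTS-like family that binds fibrillin and has no protease domain, read 77.2, 71.2 and 77.7 in untreated WT and 137, 128 and 149 in untreated knockout-labelled hearts. The difference was 1.58-fold (log2 0.66, SE 0.13, 95% interval 0.36 to 0.96, adjusted p = 0.041). After DOX it read 66.4, 69.6 and 79.6 in WT and 80, 144 and 103 in knockout-labelled hearts. These groups did not overlap by a narrow margin, and the log2 difference of 0.42 was not called (adjusted p = 0.17). Without DOX-treated knockout-labelled replicate 1 it was called (adjusted p = 0.046).

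The call of Adamtsl2 between the untreated groups was kept only without DOX-treated knockout-labelled replicate 1 or 2 or DOX-treated WT replicate 3. In the other 9 fits the log2 difference lay between 0.61 and 0.70 and the adjusted p was up to 0.146. With untreated knockout-labelled replicate 3 and DOX-treated WT replicate 2 both left out it was 0.61 (adjusted p = 0.15), while the call of Adamts9 stood, at 0.51 (adjusted p = 0.045). In the untreated pair of groups the smooth muscle and pericyte markers summed to 11328 to 12770 in WT and 16400 to 21664 in knockout-labelled hearts. The gap between these sums lay in Acta2, smooth muscle actin, with means of 1716 and 9499, the 1 marker called. Of the 8 markers 6 had a log2 difference above 0 (median 0.26). The means of Rgs5 (8098 and 7300) and Kcnj8 (639 and 495) were lower in knockout-labelled hearts. The part of these markers and of the fibroblast markers in the values of Adamts9 and Adamtsl2 was not tested.

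Of the others, Adamts1, an aggrecan- and versican-cleaving protease, read 266, 285 and 342 in untreated WT hearts, below the 344, 414 and 450 of untreated knockout-labelled and the 522, 369 and 368 of DOX-treated WT hearts. Neither log2 difference, 0.40 (adjusted p = 0.31) and 0.44 (adjusted p = 0.19), was called. Adamts15 read 53.7, 42.4 and 54.6 in untreated and 84.8, 114 and 65.7 in DOX-treated WT hearts, a log2 response of 0.53 (adjusted p = 0.12).

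Adamtsl3 read 36.3, 43.1 and 55 in DOX-treated WT hearts, below the 63.2, 65.7 and 65.1 of DOX-treated knockout-labelled hearts. That log2 difference was 0.34 (adjusted p = 0.13), and its DOX response in WT was -0.31 (adjusted p = 0.12). Of the fits that left out 1 array, only that without DOX-treated WT replicate 3 called them (adjusted p = 0.0496 and 0.040). Adamts5, an aggrecanase, was not called, with log2 differences between -0.03 and 0.13 and adjusted p of 0.77 or more. Adamts8 read 37.4, 47.6 and 40.2 in DOX-treated and 53.1, 51.4 and 50.4 in untreated knockout-labelled hearts, a log2 response of -0.18 (adjusted p = 0.090).

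**Figure D4:**
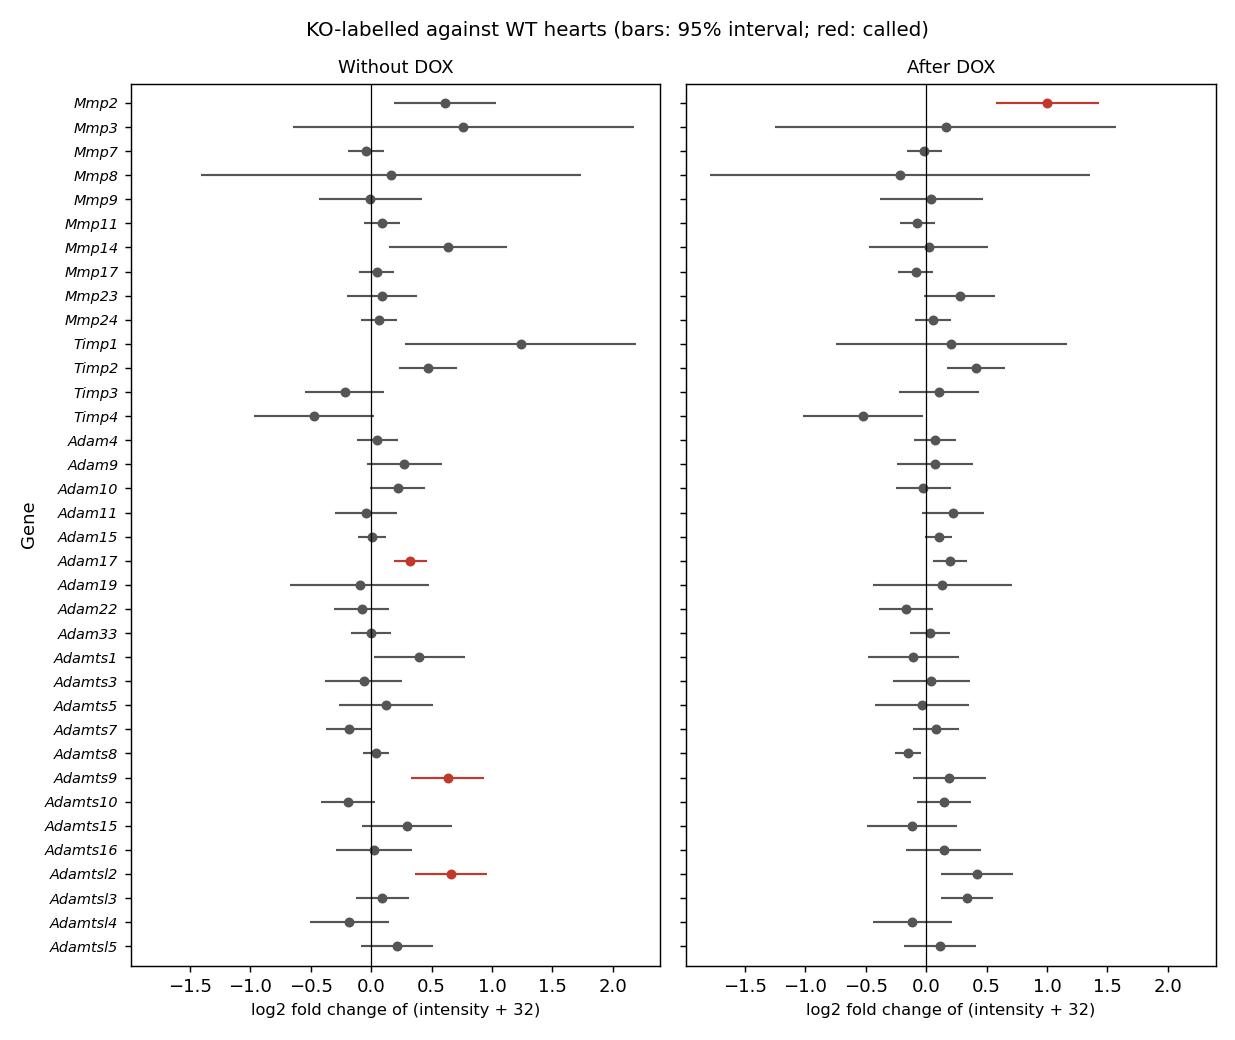
Log2 fold change (x axis) of each of the 36 members (y axis, by family) in knockout-labelled against WT hearts, without DOX (left) and after DOX (right), with 95% intervals as bars and called members in red. Adam17, Adamts9 and Adamtsl2 are called without DOX and Mmp2 after it, and the intervals of Mmp3, Mmp8 and Timp1 are the widest.

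The interaction tests the difference between the DOX responses of the 2 genotypes. It was called for 0 of the 36 members and for 0% of all probe sets by limma, with 3914 of 45037 (8.69%) and 3 of the 36 at an unadjusted p under 0.05. The lowest adjusted p of a member was 0.52, for Adamts8 (log2 -0.19), followed by Adamts10 (0.34, adjusted p = 0.56), Adamts9 (-0.44, adjusted p = 0.57) and Adamts7 (0.27, adjusted p = 0.58). That Adam22 and Timp3 were each called in 1 genotype only was therefore not shown to be a difference between the genotypes.

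**Figure D5:**
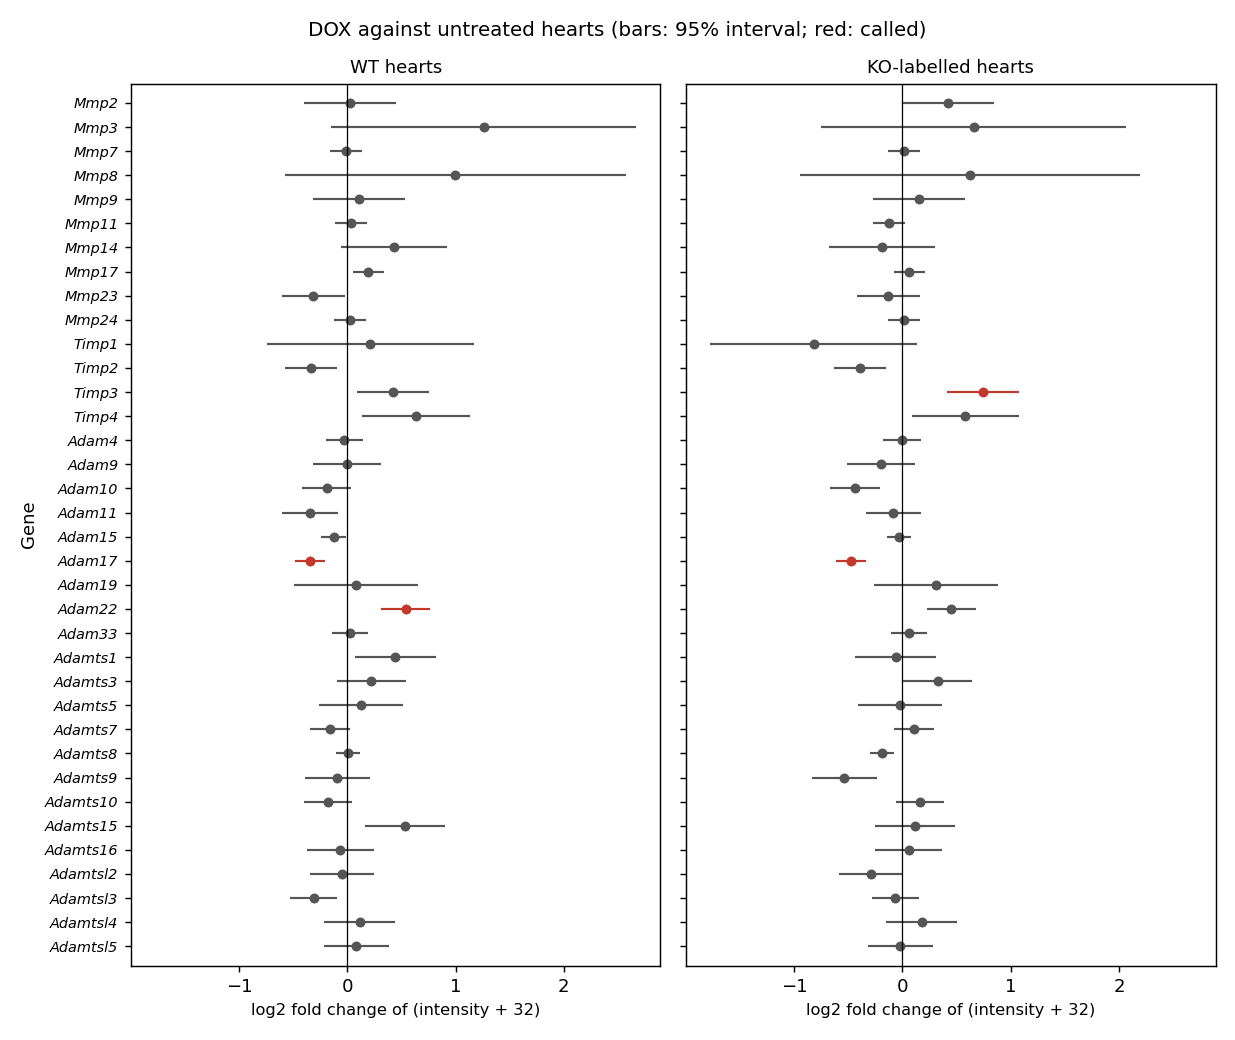
Log2 fold change (x axis) of each of the 36 members (y axis, by family) in DOX-treated against untreated hearts, in WT (left) and knockout-labelled hearts (right), with 95% intervals as bars and called members in red. Adam17 lies below 0 in both panels, at -0.34 and -0.47, and Timp3, Timp4 and Adam22 lie above 0 in both.

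Of 71 other genes of the pathway, 66 were found and 52 had a mean of at least 32: 17 regulators of these proteases, 26 proteins that they shed or cleave, and 9 cytokines and factors that induce them. In the DOX response of WT hearts 1 of the 52 was called higher and 3 lower, beside 2.64% and 3.19% of all genes with a mean of at least 32. Hbegf, a membrane-bound EGF-receptor ligand that ADAM17 and other ADAMs release, read 256, 232 and 236 in untreated and 556, 591 and 425 in DOX-treated WT hearts. It rose 2.02-fold (log2 1.01, SE 0.13, adjusted p = 0.010), and of the 12 fits that left out 1 array the call was lost in the fit without untreated WT replicate 3 (adjusted p = 0.052).

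In knockout-labelled hearts Hbegf read 308, 278 and 282 without and 351, 349 and 261 with DOX, a log2 response of 0.12 (adjusted p = 0.73). After DOX it was the 1 pathway gene called between the genotypes (1 of 52, beside 1.49% of all such genes called lower), 1.58-fold lower in knockout-labelled than in WT hearts (log2 -0.66, adjusted p = 0.049), a call kept only without DOX-treated WT replicate 3. The interaction of Hbegf was -0.89 (adjusted p = 0.33), which was not called.

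The 3 called lower after DOX in WT hearts were Pcsk6, Tgfb1 and Tspan15. Pcsk6, a proprotein convertase, had a log2 response of -0.67 (adjusted p = 0.040). Tgfb1, which encodes a cytokine that drives matrix production, had -0.47 (adjusted p = 0.044). Tspan15, a tetraspanin partner of ADAM10, had -0.35 (adjusted p = 0.039). Pcsk6 read 313, 206 and 237 without and 138, 135 and 162 with DOX. Tgfb1 read 101, 101 and 113 without and 68.9, 70.7 and 61.3 with DOX. In knockout-labelled hearts the means without and with DOX were 262 and 191 for Pcsk6 and 88.8 and 69.7 for Tgfb1. They were 95.1 and 76.5 for Tspan15. These responses in knockout-labelled hearts were not called.

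In the DOX response of knockout-labelled hearts 1 of the 52 was called higher and 4 lower, beside 1.63% and 3.27% of all genes with a mean of at least 32. Thbs2, thrombospondin-2, a matrix protein that clears MMP2 from the pericellular space, read 225, 197 and 208 without and 670, 515 and 394 with DOX, and rose 2.26-fold (log2 1.18, SE 0.20, adjusted p = 0.022). In WT hearts it read 315, 379 and 372 without and 704, 647 and 424 with DOX, a log2 response of 0.66 that was not called (adjusted p = 0.11). The interaction was 0.52 (adjusted p = 0.64).

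Vcan, versican, a proteoglycan cleaved by ADAMTS proteases, read 164, 118 and 326 without and 49.7, 68.2 and 49.1 with DOX in knockout-labelled hearts, and fell by 1.33 on the log2 scale (adjusted p = 0.033). Without untreated knockout-labelled replicate 3 it fell by 0.97 (adjusted p = 0.022). Col1a1, a chain of type I collagen, read 236, 149 and 271 without and 51.1, 111 and 60.8 with DOX, and fell by 1.25 (adjusted p = 0.033), or by 1.09 without that array (adjusted p = 0.080). Ets1, a transcription factor of MMP promoters, fell by 0.84 (adjusted p = 0.028) and Rhbdf1, a partner of ADAM17, by 0.28 (adjusted p = 0.043). In WT hearts the means without and with DOX were 72.1 and 40.9 for Vcan and 80.5 and 42.3 for Col1a1. They were 642 and 447 for Ets1 and 354 and 354 for Rhbdf1. These WT responses were not called, and the interaction was called for 0 of the 52 pathway genes. Of the 12 fits that left out 1 array, the call of Thbs2 was kept in 9, of Ets1 in 8, of Col1a1 in 6, of Vcan in 5 and of Rhbdf1 in 2, and in WT hearts that of Tspan15 in 6 and of Pcsk6 and Tgfb1 in 4 each. The call of Thbs2 was lost without untreated knockout-labelled replicate 3 (adjusted p = 0.050) or DOX-treated knockout-labelled replicate 1 or 2 (0.077 and 0.069).

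Without DOX, Col1a1 was the 1 pathway gene called between the genotypes (1 of 52, beside 2.05% of all such genes called higher), 2.19-fold higher in knockout-labelled hearts (log2 1.13, adjusted p = 0.048), or 0.98 on the log2 scale without untreated knockout-labelled replicate 3 (adjusted p = 0.14), and called in 2 of the 12 fits that left out 1 array. Vcan followed, with 1.08 (adjusted p = 0.070). After DOX, Sdc4, a heparan sulphate proteoglycan that these proteases shed, read 233, 227 and 321 in WT and 427, 403 and 458 in knockout-labelled hearts, a log2 difference of 0.67 that was not called (adjusted p = 0.059). Cd44, the hyaluronan receptor, had an interaction of -0.66 (adjusted p = 0.41). The median log2 values of the 52 genes were 0.12 without DOX and 0.05 after DOX for the genotype, and -0.11 in WT and -0.13 in knockout-labelled hearts for DOX. Over all genes with a mean of at least 32 they were -0.02 in both genotype comparisons and -0.01 in both DOX responses.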

How the data were processed

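Expression Console summarised the arrays, per the labels, and the authors deposited 1 linear intensity per probe set; its version, summary method and any scaling are not given in the sources used here. The deposited table holds 45037 probe sets, of which 34945 name 1 gene, 932 several and 9160 none, with intensities from 3.28 to 27119. Gene names came from the platform annotation, and 70 of 70 members matched RefSeq (GRCm38.p6) by Entrez ID. Samples were grouped by the labels. Intensities were used as deposited, 32 was added, and log2 values were fitted as 4 group means (R 4.3.3, package limma 3.58.1: lmFit, contrasts.fit and eBayes, 12 arrays); tests were two-sided and adjusted by Benjamini-Hochberg within each of 5 comparisons. Tables and plots were made with pandas 2.3.3 and matplotlib 3.10.9. Of a gene's probe sets the brightest was read. Named were members called, the 4 with the smallest p in each comparison and a fixed set of well-known members where measured; of the other pathway genes, those called and the 2 with the smallest p. The members, the pathway lists and the marker lists of 7 cell types were chosen with earlier results of these data known. In data simulated for the genotype comparison after DOX over 45037 probe sets, 47 of 67 changes of 1.5-fold, 64 of 67 of 2-fold and 66 of 66 of 4-fold were called, with 9 false calls. The changes were placed only in probe sets with a mean of at least 32, on the scale of intensity plus 32. The noise was normal and independent between arrays, without arrays that stood apart, so the real arrays may give a lower recovery. Alternatives tried were another added value, quantile normalization, another probe-set rule or filter, the variance model, the arrays in the fit, a replicate block, the methods' t-test, another threshold, and leaving out each array, or untreated knockout-labelled replicate 3 and DOX-treated WT replicate 2 together. Summed marker intensities of the lists not described in full were 3055 to 4425 for endothelial cells (9 of 9 markers found), 2975 to 7486 for macrophages (12 of 12) and 137 to 189 for lymphocytes (5 of 6).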

Additional observations from a re-analysis of the deposited data

How the results depend on the processing

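The 8 calls rest on 3 arrays a group, and most lie near the threshold. After DOX the count of members called between the genotypes was 1 and became 0 with untreated knockout-labelled replicate 3 and DOX-treated WT replicate 2 both left out, 0 in a fit to the 6 arrays of the comparison, 0 by the methods' t-test and 2 (Mmp2, Timp2) when the probe sets of a gene were averaged. Without DOX the count of 3 became 1 in the 6-array fit and 0 by the t-test. The DOX response of WT hearts, with 2 members, had 1 (Mmp3) with both arrays left out, 1 (Mmp3) in the 6-array fit and 0 by the t-test. That of knockout-labelled hearts, with 2, had 4 with 1 probe set per gene, 5 when a gene's probe sets were averaged, 6 with dim probe sets left out, 5 with a trended and robust variance, 7 at an adjusted p under 0.1, 0 in the 6-array fit and 0 by the t-test. The methods' t-test passed 4, 4, 8 and 8 members at their unadjusted threshold. Leaving out 1 array at a time gave 0 to 1 members after DOX and 0 to 2 without it between the genotypes, 0 to 4 for DOX in WT and 0 to 5 in knockout-labelled hearts; without DOX-treated knockout-labelled replicate 1 the latter was 0. The 1 member after DOX was Adamtsl2 without DOX-treated knockout-labelled replicate 1 and Adamtsl3 without DOX-treated WT replicate 3. In the other such fits with a call it was Mmp2. The interaction gave 0 under every alternative run. Of 18 same-numbered pairs of arrays 4 had deviations correlated above 0.1 (range -0.242 to 0.154, median 0.042). For the other pairs the range was -0.299 to 0.28 and the median -0.016. With 3 arrays a group, this comparison cannot exclude that arrays of the same number were handled together. With the replicate block the counts were 0 after DOX, 1 without DOX (Adam17), 3 for DOX in WT (Adam17, Adam22, Timp3) and 2 for DOX in knockout-labelled hearts. Over the single genes, 982 of 1218 combinations of gene and alternative kept direction and side of the threshold, 191 lost a call, 43 gained one and 2 changed sign, both Mmp3 in the genotype difference without DOX (-0.17 without untreated knockout-labelled replicate 3, with or without the other array, in a range from -0.17 to 1.25 over the 12 fits that left out 1 array). Only results called in the main fit could lose a call, and many of the 51 gene results were not called there. The 982 of 1218 therefore do not measure how stable the calls were. Quantile normalization moved the median of all probe sets by less than 0.01. The added 32 is nearly as large as the mean intensities of Mmp17 (37.7), Adam33 (38.9) and Mmp9 (39.1), so that fold changes of such dim members are understated.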
